A study of Homo sapiens with 6 samples.

Results

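The metallothionein genes *MT2A*, *MT1A*, *MT1E*, *MT1F*, *MT1G*, *MT1H*, *MT1M* and *MT1X* were followed in extracellular vesicles (EV) and whole cells (WC) of K562, a human chronic myelogenous leukemia line. The 8 genes were taken by symbol from a count table of 68201 genes. That rule uses symbols and no measured value, but the members were chosen with earlier results of these data known. The series holds 3 EV and 3 WC libraries of wild-type, untreated cells, and it has no other group. Vesicles were recovered by size exclusion chromatography from medium conditioned by the cells and made with serum depleted of vesicles, and cells of the same 3 cultures gave the WC libraries. RNA was primed at its poly-A tail, amplified as PCR-cDNA and read on nanopores. The libraries held 560157 to 881338 gene counts in EVs and 2480560 to 3178211 in WC. One cell line limits these samples as a model, and the chromatography column separates particles by size only. Priming was aimed at transcripts with a poly-A tail, though the paper does not exclude that the primer also bound elsewhere.

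Metallothioneins are small proteins rich in cysteine that hold zinc and copper and also bind cadmium. Their genes are switched on when metal ions rise, through the zinc-sensing transcription factor MTF1, which binds short metal response elements in their promoters. *MT2A* and several *MT1* genes are used in most tissues, whereas *MT3* is best known from brain and *MT4* from squamous epithelium. Glucocorticoids and oxidative stress also raise metallothionein transcription.

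The 8 genes lie in a tandem cluster at chr16:56608584-56684196 (GRCh38, GENCODE v44), a span of 75.61 kb. *MT2A* begins it, at chr16:56608584-56609497, and *MT1X* ends it, at chr16:56682470-56684196. All of them are on the plus strand except *MT1G*, at chr16:56666730-56668065 on the minus strand. In the transcripts used here each of the 8 encodes 61 codons, of which 20 are for cysteine. The coding sequences are shown for *MT2A* and *MT1G*, the 2 genes with enough reads to be tested, and for *MT1X*, with its processed pseudogene *MT1XP1* and the *MT2A* pseudogene *MT2P1*, because a read of one copy could be placed on another. Capitals mark bases that differ from *MT2A* in *MT1G*, *MT1X* and *MT2P1*, and bases that differ from *MT1X* in *MT1XP1*.
MT2A: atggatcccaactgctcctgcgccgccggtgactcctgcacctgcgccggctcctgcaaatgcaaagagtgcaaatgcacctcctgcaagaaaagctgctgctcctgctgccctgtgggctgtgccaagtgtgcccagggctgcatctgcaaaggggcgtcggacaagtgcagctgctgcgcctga
MT1G: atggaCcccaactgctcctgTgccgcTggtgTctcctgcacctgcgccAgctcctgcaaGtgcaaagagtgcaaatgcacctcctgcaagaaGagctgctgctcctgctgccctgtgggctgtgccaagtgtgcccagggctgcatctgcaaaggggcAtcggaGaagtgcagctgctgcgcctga
MT1X: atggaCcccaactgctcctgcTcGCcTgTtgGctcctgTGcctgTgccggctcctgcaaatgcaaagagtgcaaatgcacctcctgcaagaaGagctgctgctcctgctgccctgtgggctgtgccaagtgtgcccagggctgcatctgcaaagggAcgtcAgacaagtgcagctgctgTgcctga
MT1XP1: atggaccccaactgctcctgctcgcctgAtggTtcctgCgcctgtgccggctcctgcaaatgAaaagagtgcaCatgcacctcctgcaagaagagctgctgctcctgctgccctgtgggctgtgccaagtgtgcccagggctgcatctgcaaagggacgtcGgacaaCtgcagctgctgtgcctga
MT2P1: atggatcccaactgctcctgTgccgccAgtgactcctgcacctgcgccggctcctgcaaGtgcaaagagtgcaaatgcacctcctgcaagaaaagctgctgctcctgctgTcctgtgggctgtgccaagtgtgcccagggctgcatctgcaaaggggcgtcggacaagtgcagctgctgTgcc
The *MT1G* coding sequence differed from that of *MT2A* at 9 of 186 bases, which left it 95.2% identical, the closest of the 7 *MT1* genes. *MT1A*, *MT1E* and *MT1X* were each 92.5% identical to *MT2A*, *MT1H* 91.9%, *MT1F* 91.4% and *MT1M* 89.8%. *MT1XP1*, at chr1:16241213-16241398 on the minus strand, differed from *MT1X* at 7 bases (96.2% identical), and *MT2P1*, at chr4:68376323-68376505 on the plus strand, from *MT2A* at 8 (95.7%), of which 5 are substitutions, in capitals, and 3 are the bases of the stop codon, which its 183 annotated bases leave out. Nanopore reads carry errors, and how reads that fit several copies were placed is not given in the sources used here, so the split of reads among these genes is uncertain.

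Of the 8 genes, 3 had a promoter in the RefSeq table used (GRCh38.p14): *MT2A*, *MT1H* and *MT1X*. The 250 bases before the start of each are shown, since they hold the elements by which MTF1 acts. Capitals mark matches to the core of the metal response element, TGCACNC or TGCGCNC on either strand, 2 forms that cannot match at the same position of a strand.
MT2A promoter, chr16:56608334-56608583, plus strand: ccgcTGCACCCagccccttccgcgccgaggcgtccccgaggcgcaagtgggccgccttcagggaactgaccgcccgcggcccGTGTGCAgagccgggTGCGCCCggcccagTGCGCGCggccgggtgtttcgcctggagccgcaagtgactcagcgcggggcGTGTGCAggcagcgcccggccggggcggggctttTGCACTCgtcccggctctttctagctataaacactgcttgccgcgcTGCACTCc
MT1H promoter, chr16:56669564-56669813, plus strand: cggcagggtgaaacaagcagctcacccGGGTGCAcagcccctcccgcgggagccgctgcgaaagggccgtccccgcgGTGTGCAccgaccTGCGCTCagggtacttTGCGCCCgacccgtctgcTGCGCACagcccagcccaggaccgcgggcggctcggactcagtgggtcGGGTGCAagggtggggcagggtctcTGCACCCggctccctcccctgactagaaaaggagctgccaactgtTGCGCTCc
MT1X promoter, chr16:56682220-56682469, plus strand: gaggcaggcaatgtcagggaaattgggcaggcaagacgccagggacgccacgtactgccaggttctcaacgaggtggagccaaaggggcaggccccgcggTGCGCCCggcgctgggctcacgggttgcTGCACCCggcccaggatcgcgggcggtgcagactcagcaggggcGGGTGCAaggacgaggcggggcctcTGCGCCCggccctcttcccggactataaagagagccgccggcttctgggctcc
The *MT2A* promoter held 7 matches, beginning 8 to 246 bases before the start, 5 of them on the sense strand. The *MT1H* promoter held 8 and the *MT1X* promoter 4. Among 35116 promoters of the same length, 24.8% held at least 1 match, 0.37% at least 4, 0.0313% at least 7 and 0.0171% at least 8. TATAAA occurred in the *MT2A* and *MT1X* windows and in 6.8% of all windows, and not in that of *MT1H*. A match describes the letters and is no evidence of binding. *MT1H*, with the most matches of the 3, had 1 read over the 6 libraries.

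*MT2A* carried most of the metallothionein reads and was far higher in EVs than in WC. Its raw counts were 126, 105 and 110 in EV libraries 1 to 3, against 34, 37 and 25 in WC libraries 1 to 3, although the WC libraries were the deeper ones. Scaled by trimmed mean of M-values (TMM), these were 172.8, 242.9 and 251.1 CPM (counts in each 1000000 of a library's scaled total) in EVs, against 11.68, 9.445 and 7.271 CPM in WC. The groups did not overlap: the lowest EV library, the first, stood well above the highest WC library, which was also the first. *MT2A* averaged 222 ± 43.0 CPM in EVs and 9.47 ± 2.20 CPM in WC (SD, n = 3 each), a fold change of 23.3 (log2 4.54, SE 0.23). edgeR's quasi-likelihood test gave an adjusted p of 2.5e-14. Within cultures, EV over WC was 14.8, 25.7 and 34.5 in replicates 1, 2 and 3, so the direction was the same in 3 of 3 and the size varied. These p-values measure the spread between 3 cultures of one line, and in bulk RNA a larger share of a transcript cannot be told apart from a smaller amount of the other RNA.

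*MT1G*, which encodes a metal-binding protein of the same kind, had fewer reads and a fold change of like size. It had 9, 9 and 11 reads in EVs, against 1, 1 and 3 in WC. In CPM these were 12.4, 20.8 and 25.1 in EVs, against 0.344, 0.255 and 0.873 in WC, with no overlap. The means were 19.4 ± 6.496 CPM in EVs and 0.491 ± 0.334 CPM in WC (SD, n = 3 each), a log2 fold change of 5.06 (SE 0.55) with an adjusted p of 3.8e-08 in edgeR's test. *MT1G* reached the minimum count for testing only through its EV libraries, so a gene at that level had to differ in order to be tested. The ranges of 1 SE about the log2 fold changes of *MT1G* and *MT2A* overlap.

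**Figure D1:**
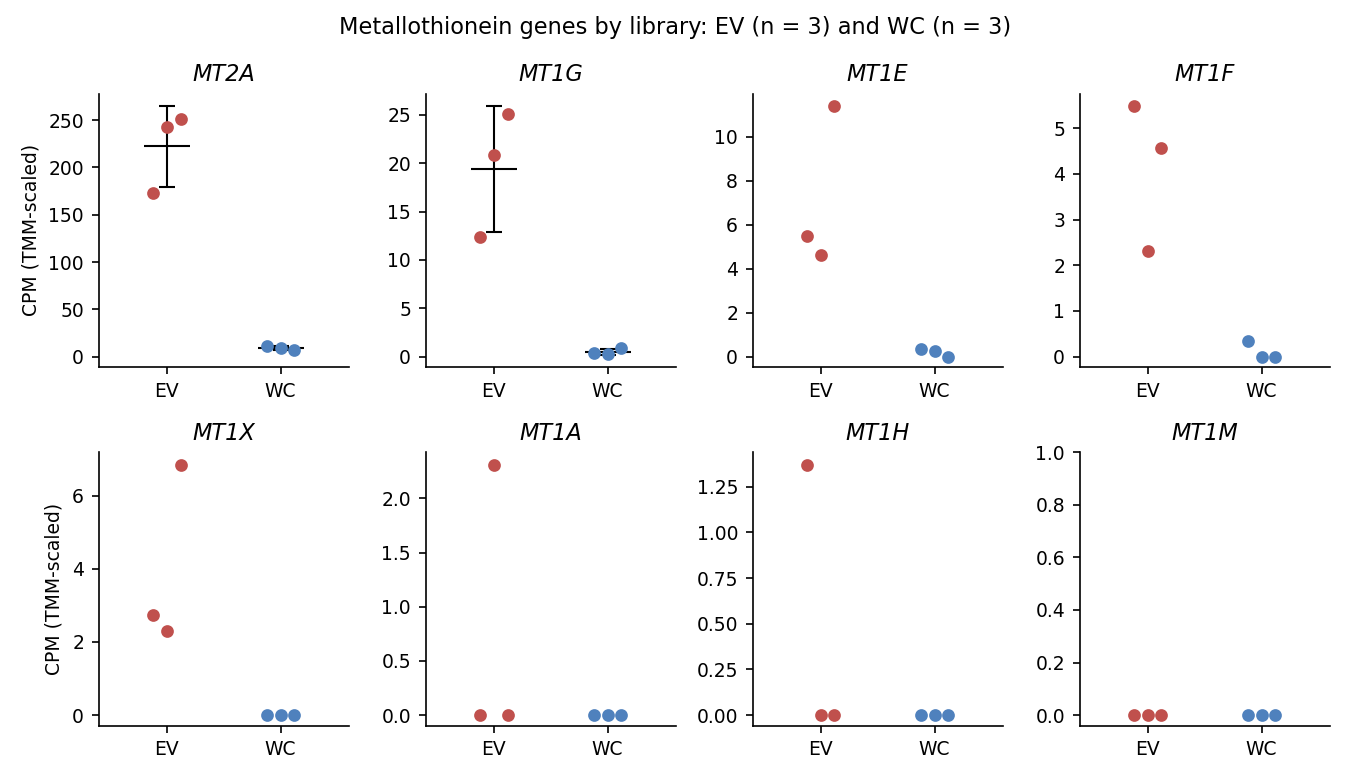
TMM-scaled CPM of each metallothionein gene in 3 EV libraries (left in each panel) and 3 WC libraries (right); each panel has its own linear axis. Black bars are the mean ± SD, drawn for the 2 tested genes: *MT2A* averaged 222 CPM in EVs and 9.47 CPM in WC, *MT1G* 19.4 CPM in EVs and 0.491 CPM in WC, and *MT1M* was at 0 in all 6 libraries.

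The other 6 genes were too low to be tested. *MT1E* had 4, 2 and 5 reads in EVs and 1, 1 and 0 in WC. Summed over libraries, its scaled ratio of EV to WC was 35.3, with an exact 95% interval of 7.71 to 328. *MT1F* had 4, 1 and 2 reads in EVs and 1, 0 and 0 in WC, a ratio of 44.9 with an interval of 5.77 to 2025. Both lower bounds lie above equal levels, and both upper bounds are set by the 1 or 2 WC reads. *MT1X* had 2, 1 and 3 reads in EVs and 0 in each WC library. With the 3 WC libraries together set to 3 reads, its scaled ratio of EV to WC was 12.8. This ratio takes the EV reads as observed, without their counting error, and is not a lower bound. *MT1A* had 1 EV read and *MT1H* 1 EV read, with 0 in WC, and no fold is given. *MT1M* had 0 reads in both groups, which allows up to 1.48 CPM of unscaled counts in EVs and 0.359 CPM in WC. Intervals and limits cover counting error only, and PCR copies are not independent molecules.

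*MT2A*, *MT1G*, *MT1E*, *MT1F* and *MT1X* thus had more scaled reads in EVs, while the 1 read of *MT1A* and of *MT1H* gives no direction. Of the 8 genes, 2 were tested. Both rose at an adjusted p under 0.05, where 22.8% of the 8716 tested genes rose, and neither fell (0 also at an unadjusted p under 0.05 and in DESeq2), where 21.4% did. Both also met the stricter rule for EV enrichment, an adjusted p no higher than 0.01 beside a log2 fold change no lower than 2, which 4.53% of tested genes met. Of the 6768 tested coding genes, 1007 rose, 1503 fell and 111 were enriched in EVs. Since *MT1G* was tested only because it was high in EVs, the count of 2 is read with *MT2A* alone. With no expression filter, 5 of the 7 genes with reads rose in edgeR (*MT2A*, *MT1G*, *MT1E*, *MT1F* and *MT1X*), beside 6.2% of 29258 genes. There *MT1E* had an adjusted p of 3.3e-05, *MT1F* 0.0014 and *MT1X* 0.00087. DESeq2 also called 5, beside 6.35% of the same 29258 genes. These include genes to which DESeq2 gave no adjusted p, *MT1A* and *MT1H* among them. With the WC libraries thinned to the mean EV depth, *MT1G* was no longer tested and 1 gene rose, beside 25.2% of 5286 genes.

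**Figure D2:**
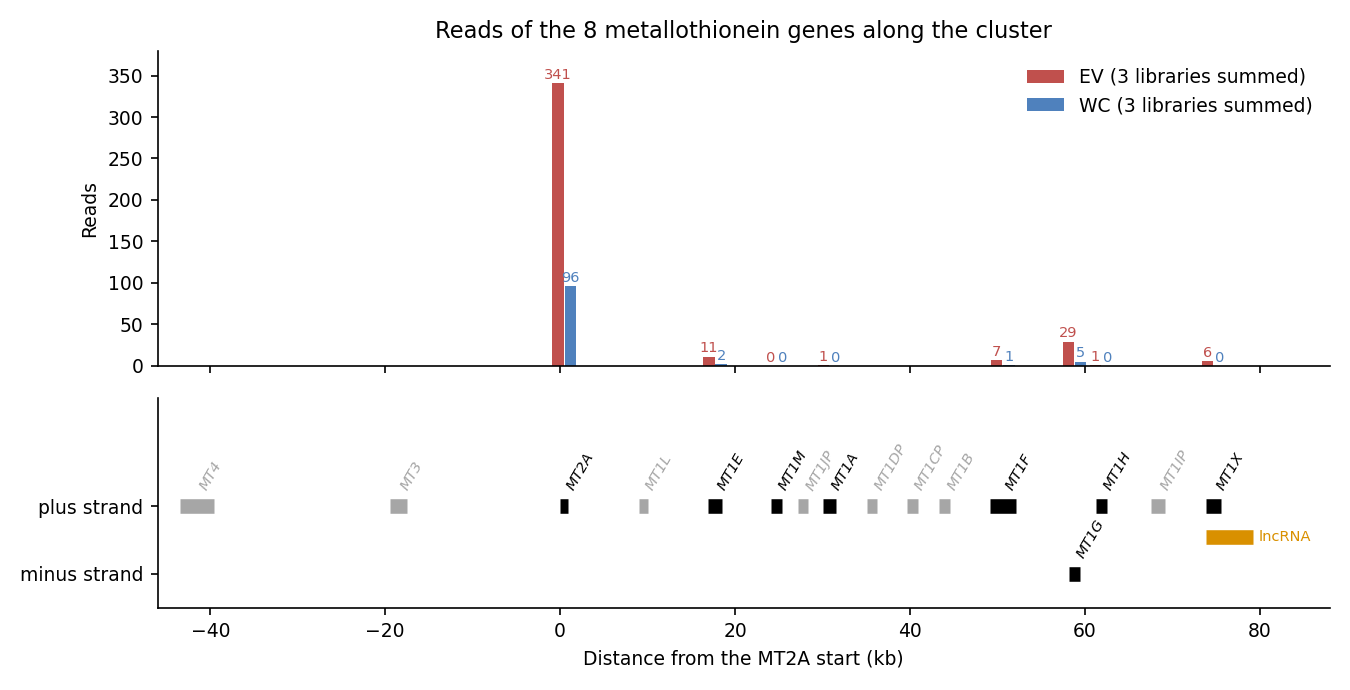
Reads of the 8 genes summed over 3 EV libraries (red, left bar) and 3 WC libraries (blue, right bar), above a map of the cluster in kb from the *MT2A* start with plus-strand and minus-strand genes on separate lines. Black marks the 8 genes, grey other metallothionein genes and pseudogenes, orange a long non-coding RNA that overlaps *MT1X*; *MT2A* has 341 reads in EVs and 96 in WC, and no other gene has more than 29.

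Together the 8 genes stood at 165.7, 212.4 and 225.5 unscaled CPM in EV libraries 1 to 3, against 14.9, 12.3 and 10.4 in WC libraries 1 to 3. This was 396 of 2022347 counts in EVs and 104 of 8353763 in WC. *MT2A* was 86.1% of the metallothionein reads in EVs (exact 95% interval 82.3% to 89.4%) and 92.3% in WC (85.4% to 96.6%). The 2 intervals overlap. Both shares use gene counts, which for *MT1X* did not match the authors' isoform counts, as given below. Among coding genes with reads, *MT2A* ranked 304 of 10999 by mean CPM in EVs and 5202 of 14055 in WC. *MT1G* ranked 2863 in EVs and 11226 in WC.

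The genes were also ordered by level per length, with the length of the isoform model the authors assembled. In EVs the order of mean CPM per kb was *MT2A* (586.5 ± 113.5), *MT1G* (51.9 ± 17.4), *MT1E* (18.03 ± 9.29), *MT1F* (11.1 ± 4.39) and *MT1X* (10.1 ± 6.37; SD, n = 3 each). *MT2A* and *MT1G* did not overlap between libraries, nor did *MT1G* and *MT1E*. *MT1E*, *MT1F* and *MT1X* overlapped and have no settled order. The place of *MT1X* is uncertain beyond this. It rests on gene counts with a normalized mean of 2.46, where the authors' mean isoform count was 39.1. In WC the levels were 24.97 ± 5.82 for *MT2A* and 1.31 ± 0.893 for *MT1G*, with *MT1E* and *MT1F* at 0.502 ± 0.448 and 0.308 ± 0.533. *MT2A* was again clear of the rest, and *MT1G* overlapped *MT1E* and *MT1F*.

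Whether the *MT1* genes differed from *MT2A* in their shift was tested by the log2 ratio of their reads to *MT2A* reads in the same library, with 0.5 added to each count. For *MT1G* the ratio was -3.74, -3.47 and -3.26 in EVs, against -4.52, -4.64 and -2.87 in WC. The EV values fell inside the WC range, and the mean difference, EV minus WC, was 0.52 (exact permutation p = 0.4, two-sided). For *MT1X* the difference was 0.41 (exact permutation p = 0.4), for *MT1E* 0.10 (p = 0.8) and for *MT1F* 0.003 (p = 1). After adjustment over the 4 tests the exact p-values were 0.8, 0.8, 1 and 1. With 3 libraries against 3 the smallest p is 0.1, so this test could not reach 0.05. The counts of 0 to 11 reads behind the *MT1* values leave the added 0.5 a large part of each ratio.

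**Figure D3:**
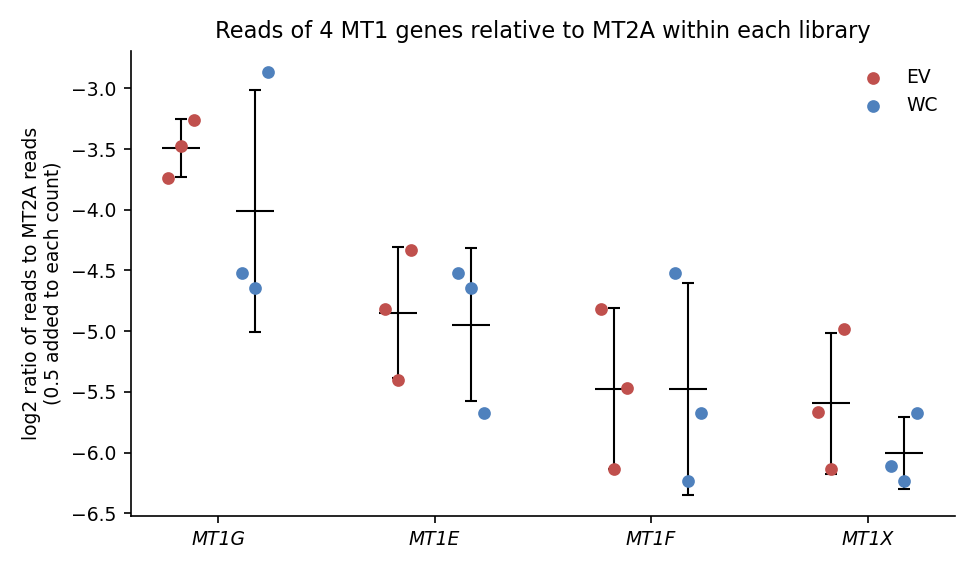
log2 ratio of the reads of *MT1G*, *MT1E*, *MT1F* and *MT1X* to those of *MT2A*, with 0.5 added to each count, in 3 EV libraries (left, red) and 3 WC libraries (right, blue); black bars are the mean ± SD. For each gene the values of the 2 groups overlap, and the largest mean difference is 0.52, for *MT1G*.

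Set among all genes, *MT2A* had the 11th largest log2 fold change of 8716 and *MT1G* the 5th. Among the 6768 tested coding genes they were the 5th and the 4th. *MT1G* reached the minimum count only through its EV libraries, so it had to differ to be ranked at all. The gene next above *MT2A* was *FTH1P10*, a processed pseudogene of the ferritin heavy chain (log2 4.65, SE 0.22), and the one next below was the processed pseudogene ENSG00000226945 (4.49, SE 0.32). Next above *MT1G* stood *RAB13* (5.17, SE 0.25), a small GTPase of vesicle traffic, and next below the long non-coding RNA ENSG00000253374 (4.88, SE 0.41). Of the neighbours named, *FTH1P10* alone reached the minimum count in both groups, and the other 3 did so through their EV libraries. These neighbours differed from *MT2A* or *MT1G* by less than 1 standard error of either.

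The coding genes whose pattern over the 6 libraries lay nearest to that of *MT2A*, by Euclidean distance of centred log2 CPM among 6767 genes, were *HBG2* (distance 0.474), *RAB13* (0.842), *MT1G* (1.21), *RPL26* (1.45) and *RPS3A* (1.46). *HBG2*, a gamma globin of fetal hemoglobin, averaged 217 ± 41.7 CPM in EVs and 11.1 ± 3.62 CPM in WC (SD, n = 3 each), close to the levels of *MT2A* in both. It shares most of its sequence with *HBG1*, so its counts are uncertain. *MT1G*, at rank 3 of 6767, was the only metallothionein gene besides *MT2A* with enough reads to enter this ranking. Like *RAB13*, it reached the minimum count only through its EV libraries, so it had to differ to enter. *RPL26* and *RPS3A* encode ribosomal proteins and have many processed pseudogenes. They stood at log2 fold changes of 3.40 (SE 0.24) and 3.43 (SE 0.18).

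Metallothionein transcripts are short, and short coding genes as a group also leaned to EVs. Of 631 coding genes with no annotated transcript over 700 bases, metallothioneins left out, 79 were tested, 51 rose and 8 fell. Their median log2 fold change was 0.84, against -0.24 over the 6768 tested coding genes and -0.13 over all tested genes. Of those 6768 coding genes, 1007 rose and 1503 fell. Several of the 51 risen genes belong to families of similar copies, such as the *GAGE* genes, so they do not all count as independent. None of the 79 exceeded *MT2A*. The highest was *HBG2* at 4.30 (SE 0.23), and the members farthest in the other direction were the mitochondrially encoded *MT-ND3* (-3.61, SE 0.27), *MT-CO2* (-3.50, SE 0.15) and *MT-ATP6* (-3.35, SE 0.24), whose symbols begin alike but which are respiratory chain genes. *MT2A* and *MT1G* thus lay above the whole range of tested short coding genes, but *MT1G* was tested only through its EV libraries. The part of length in the fold changes of *MT2A* and *MT1G* was not tested. Scaling to total counts shifted all genes together, to a median of -0.78 over all tested genes, and counts under it carry that shift. Of all 8716 tested genes, 1066 then rose and 4494 fell. The short genes then had 27 risen and 22 fallen, while *MT2A* stood at 3.88 (SE 0.22) and *MT1G* at 4.42.

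**Figure D4:**
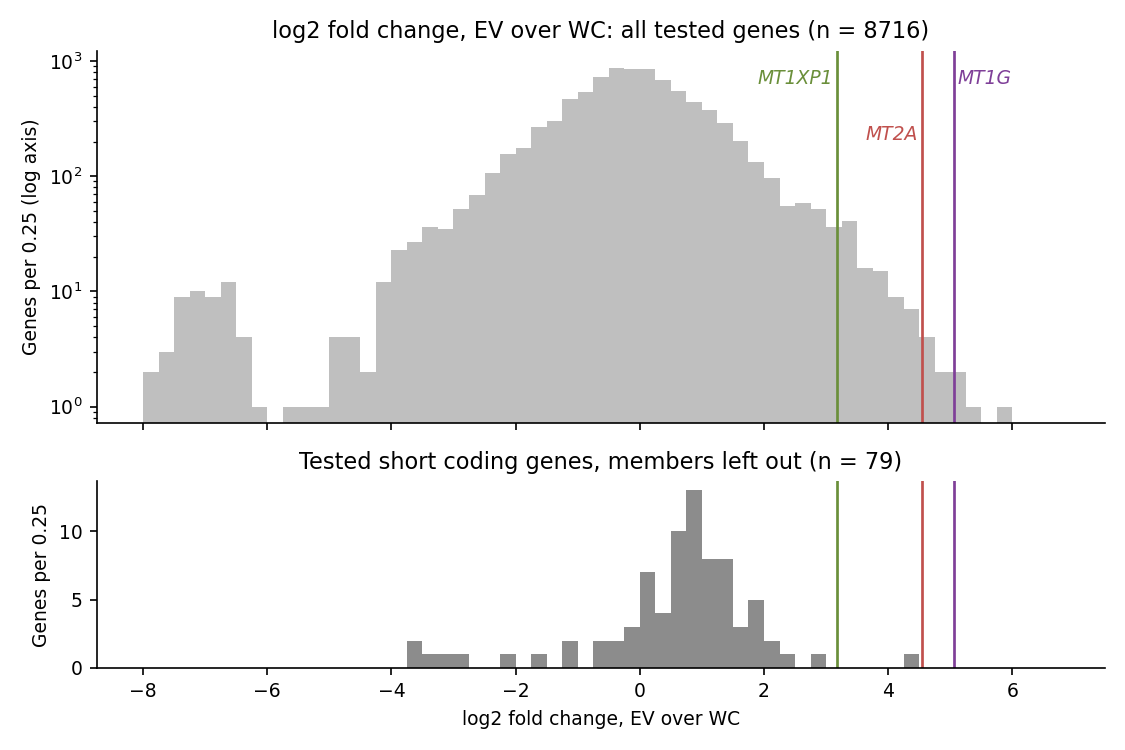
Numbers of genes by log2 fold change, EV over WC, for all 8716 tested genes (upper panel, log axis) and the 79 tested short coding genes (lower panel, linear axis), in steps of 0.25. Vertical lines mark *MT1XP1* at 3.17, *MT2A* at 4.54 and *MT1G* at 5.06. Both *MT2A* and *MT1G* lie to the right of every short coding gene, though *MT1G* was tested only through its EV libraries.

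Of the 13 other metallothionein genes and pseudogenes, 1 was tested. *MT1XP1*, the processed copy of *MT1X*, had 8, 5 and 6 reads in EVs and 5, 6 and 2 in WC. Its CPM were 10.97, 11.6 and 13.7 in EVs, against 1.72, 1.53 and 0.582 in WC, a log2 fold change of 3.17 (SE 0.52, edgeR adjusted p = 1.8e-05). Like *MT1G*, it reached the minimum count for testing only through its EV libraries. In the gene counts *MT1XP1* had more reads than *MT1X* itself in every library, but those of *MT1X* did not match its isoform count, given below. *MT2P1* had 2, 3 and 1 reads in EVs and 1, 2 and 1 in WC. With its reads added to those of *MT2A*, the log2 fold change of *MT2A* was 4.51. *MT4*, the gene of squamous epithelium, had 0, 1 and 0 reads in EVs and 3, 3 and 1 in WC, which scaled to means of 0.771 ± 1.34 CPM in EVs and 0.696 ± 0.375 CPM in WC (SD, n = 3 each), with overlapping libraries. *MT1HL1* and *MT1L* had 1 EV read each, and the remaining 8, *MT3* among them, had 0.

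The isoform models assembled by the authors covered *MT2A*, *MT1E*, *MT1F*, *MT1G* and *MT1X*, all with 3 exons. The *MT2A* model spanned 379 of the 401 bases of its annotated transcript, the *MT1F* model 372 of 425 and the *MT1X* model 393 of 404. The *MT1E* model had 398 bases, against 704 in its annotated transcript, which begins farther upstream. *MT1G* had a pair of models, of 374 and 371 bases, that differ in the middle exon. *MT1X* had a second model of 549 bases with a longer middle exon, the only one of these that was marked as carrying a premature stop codon. All the others were marked productive. These models pool EV and WC reads and give no count per library.

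For *MT1X* the isoform table and the gene table did not match. The authors' mean normalized isoform count over the 6 libraries was 39.1 for the *MT1X* main isoform, against a mean normalized gene count of 2.46, a ratio of 15.9. For *MT2A* the values were 170.1 and 143.7, a ratio of 1.18. The 2 tables were normalized separately. Among 1773 coding genes with a mean isoform count of at least 20, the median ratio was 0.710, 441 genes had a higher ratio than *MT2A* and 137 a higher ratio than *MT1X*. *MT1X* was also the only one of the 8 genes whose main transcript overlaps exons of another annotated gene, the long non-coding RNA ENSG00000259827 on the same strand, which shares 165 of the 404 bases of *MT1X* (40.8%) and had 0 reads. Reads from regions of several genes were left unassigned by the counting, and the part of this in the *MT1X* count was not tested. The fold and level given for *MT1X*, its comparison with *MT1XP1* and the *MT2A* share of metallothionein reads rest on the gene table alone.

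No tested gene of zinc handling rose. Of 27 genes for MTF1 and for zinc transport, 14 were tested, of which 0 rose in edgeR's test (0 also at an unadjusted p under 0.05, 1 in DESeq2) and 8 fell. Of those 8, 6 reached the minimum count only through their WC libraries, the 4 named next among them, so they had to differ to be tested. The median of the 14 was -0.97 on the log2 scale, beside -0.13 over all tested genes, of which 22.8% rose and 21.4% fell. The farthest was *SLC11A2*, a transporter of iron and other divalent metals, with 5.50 ± 3.28 CPM in EVs and 20.3 ± 0.909 CPM in WC (SD, n = 3 each; log2 -2.002, SE 0.43, edgeR adjusted p = 0.00052). *SLC30A7*, which loads zinc into the Golgi, fell by 1.95 on the log2 scale (adjusted p = 0.0036) and *SLC39A14*, which imports zinc and iron, by 1.44 (0.0037), while *SLC39A11*, a zinc importer, had a log2 fold change of -1.71 (0.0054). *MTF1* had 4, 2 and 1 reads in EVs and 10, 27 and 18 in WC and was not tested. *SLC30A1*, the plasma membrane zinc exporter and a known MTF1 target, had 1, 3 and 3 reads in EVs and 1, 4 and 1 in WC, a scaled level of 5.05 ± 3.19 CPM in EVs and 0.552 ± 0.407 CPM in WC, also too low to be tested. It was the 1 gene of this list that rose in DESeq2 (log2 2.94, adjusted p = 0.036), with an adjusted p of 0.036 in edgeR without a filter. Without EV replicate 1 the number that fell was 4, and *SLC30A7* was not called (adjusted p = 0.071). Scaled to total counts, 12 of the 14 fell, where 4494 of all 8716 tested genes did.

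Of 15 genes of copper handling, 9 were tested, 4 rose and 3 fell, with a median of 0.07. Over all tested genes, 22.8% rose and 21.4% fell. *COMMD1*, which takes part in copper export, rose by 2.02 (SE 0.26, edgeR adjusted p = 4.9e-07). *ATP7B*, the copper pump of the secretory pathway, fell by 2.45 (adjusted p = 0.01) on 2 EV reads, *SLC31A1*, the copper importer, by 0.96 (0.0023), and *SCO1*, which delivers copper to cytochrome oxidase, by 1.303 (0.037). With the culture as a replicate block *SCO1* was no longer called (adjusted p = 0.06), and in DESeq2 neither *SCO1* (0.11) nor *ATP7B* (0.078) was, with 1 gene of the list fallen. *ATP7B* and *SCO1* reached the minimum count only through their WC libraries, so they had to differ to be tested. *SCO1* was not called either without EV replicate 1 or 2 (adjusted p = 0.13 for each) or WC replicate 2 (0.065), nor *ATP7B* without EV replicate 2 (0.055), and 1 gene fell without EV replicate 2 or WC replicate 2. Scaled to total counts, 1 of the 9 rose and 4 fell, beside 1066 and 4494 of all 8716 tested genes.

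Of 18 genes of glutathione and thiol defence, which buffer metals and oxidants beside metallothioneins, 14 were tested, 6 rose and 2 fell, with a median of 0.30. The shares over all tested genes were 22.8% risen and 21.4% fallen. *GCLM*, a subunit of the enzyme that begins glutathione synthesis, rose by 1.84 (SE 0.34, edgeR adjusted p = 7.7e-05), *NFE2L2*, the transcription factor NRF2, by 1.31 (adjusted p = 0.0008) and *GSTP1*, a glutathione transferase, by 1.20 (1.5e-07). *GLRX*, glutaredoxin, fell by 1.20 (adjusted p = 0.044) and lost its call with the replicate block (adjusted p = 0.07), in DESeq2 (0.13, with 1 gene of the list fallen), and without EV replicate 1 (0.31) or 2 (0.066) or WC replicate 2 (0.09) or 3 (0.052). It was tested only through its WC libraries. For the list, 1 gene fell without EV replicate 2, WC replicate 2 or WC replicate 3. Scaled to total counts, 2 of the 14 rose and 7 fell, and *NFE2L2* was not called there (adjusted p = 0.058). With that scaling 1066 of all 8716 tested genes rose and 4494 fell.

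Of 10 genes of the responses to glucocorticoids and to metal and heat stress, 7 were tested, with a median of 0.38. Where 22.8% of all tested genes rose and 21.4% fell, 3 of the 7 rose and 0 fell in edgeR's test. The number fallen was also 0 at an unadjusted p under 0.05 and in DESeq2. The 3 that rose encode heat shock chaperones: *HSPA1B* (3.07, SE 0.49), *HSPA1A* (1.35, SE 0.20) and *HSPH1* (0.82, SE 0.27), of which *HSPH1* was not called under total-count scaling (0.16, adjusted p = 0.61), where 2 genes rose and 1 fell, or without EV replicate 1 (adjusted p = 0.07) or WC replicate 1 (0.056), where 1 gene rose. *HSPH1* was not called in DESeq2 (0.71, adjusted p = 0.1) or with no expression filter (0.62, adjusted p = 0.11) either, with 2 genes of the list risen in each. *HSPA1B* reached the minimum count only through its EV libraries and had to differ to be tested. *HSPA1A* and *HSPA1B* are near-identical copies, and the split of reads between them is uncertain. The glucocorticoid receptor *NR3C1* (-0.10, adjusted p = 0.83) and its target *FKBP5* (0.30, adjusted p = 0.41) were not called.

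Genes beside the cluster went both ways. Of 21 genes that begin within 300000 bases of its ends, 10 had reads, 5 were tested, 1 rose and 1 fell, with a median of 0.08. Among all tested genes 22.8% rose and 21.4% fell. *RPS24P17*, a ribosomal protein pseudogene, rose by 2.90 (SE 0.35) but was tested only through its EV libraries, and *HERPUD1*, an endoplasmic reticulum stress gene, fell by 1.19 (SE 0.30). *OGFOD1*, an oxygenase that modifies ribosomes, had 178.5 ± 43.5 CPM in EVs and 166.3 ± 11.9 CPM in WC (log2 0.08, SE 0.19, adjusted p = 0.75). *NUP93*, a nuclear pore gene, had a log2 fold change of -0.37 and an adjusted p of 0.27. Without EV replicate 2, 3 genes of this list rose, and 2 without EV replicate 3, while scaling to total counts gave 1 risen and 3 fallen.

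The labelled line was checked on its markers. All 13 erythroid and progenitor genes listed for K562 had reads, with a summed level of 714.7 to 826.4 CPM in EVs and 478.5 to 550.0 CPM in WC, and 6 of 12 tested rose and 1 fell, or 4 and 5 with scaling to total counts. Over all tested genes 22.8% rose and 21.4% fell, or 1066 and 4494 of 8716 with scaling to total counts. Besides *HBG2*, the genes named by size of change were *HBZ*, the embryonic zeta globin (3.203, SE 0.45), and the blood transcription factors *LMO2* (2.88, SE 0.43) and *TAL1* (2.25, SE 0.37), and all 3 reached the minimum count only through their EV libraries, so they had to differ to be tested. Of 13 markers of other blood and tissue cells, 9 had reads, summing to 53.5 to 104.1 CPM in EVs and 99.6 to 129.7 CPM in WC. Most of that came from *CD3D* and *EPCAM*, and *EPCAM* fell by 0.96 (SE 0.27). *MS4A1*, *CD79A*, *COL1A2* and *ALB* were at 0 in all 6 libraries.

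The fold changes of *MT2A* and *MT1G* were refitted in other ways. *MT2A* stayed between 3.88 and 4.68 over 14 alternatives and *MT1G* between 4.42 and 5.58 over 12, with the lowest value under total-count scaling for both. The highest adjusted p among all fits was 2.7e-10 for *MT2A* and 3.5e-05 for *MT1G*. Leaving out 1 library at a time gave 4.31 to 4.68 for *MT2A* and 4.63 to 5.58 for *MT1G*. The wider range of *MT1G* goes with its 5 WC reads, of which 3 were in WC library 3.

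**Figure D5:**
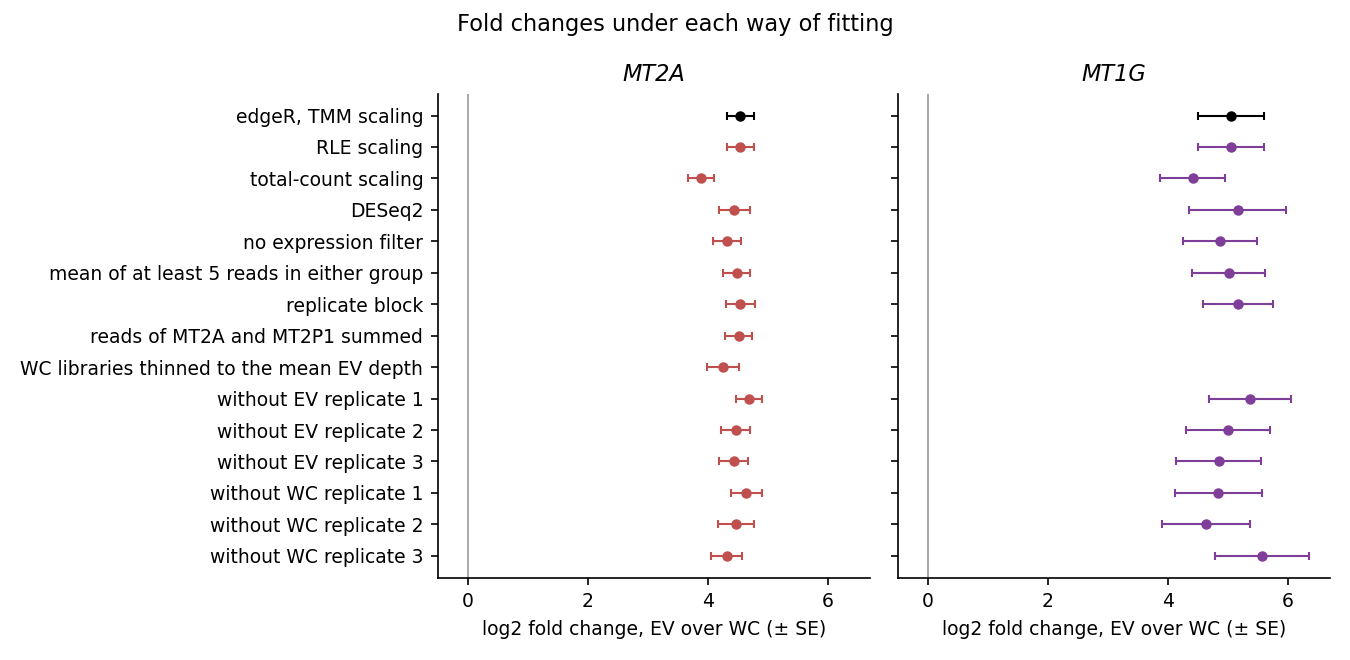
log2 fold change, EV over WC, of *MT2A* (left) and *MT1G* (right) with its SE, from the TMM-scaled edgeR fit (black, top) and each alternative (coloured). *MT2A* lies between 3.88 and 4.68 and *MT1G* between 4.42 and 5.58; *MT1G* has no value with thinned WC libraries, where it was not tested, or in the fit that adds *MT2P1* reads to *MT2A*.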

How the data were processed

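The raw counts used here were deposited by the authors, who base-called nanopore reads, aligned them with minimap2 to GENCODE v41 on hg38 and counted them per gene with featureCounts in long-read mode. The strand setting is not given in the sources used here. The deposited tables also hold, as a normalized signal, gene counts divided by DESeq2 size factors and the authors' mean isoform counts scaled likewise. FLAIR isoform models gave exons and lengths. The authors' own comparison columns (fold changes, test scores, p-values, TPM) were not used. Of 68247 lines, 46 repeated gene lines were dropped. Genes passing filterByExpr (8716) were fitted with edgeR 4.0.16 (TMM, robust quasi-likelihood, Benjamini-Hochberg) in R 4.3.3, EV against WC, and the script was checked on simulated data. Depth was 560157 to 3178211 counts a library. DESeq2 1.42.0, other scalings and filters, thinning, a replicate block and left-out libraries were alternatives. Numbers pair EV and WC from 1 culture and flow cell per the methods; correlations of same-numbered deviations were 0.062, 0.024 and 0.0044.

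Named genes were all 8 members, up to 4 per list with the largest change past an adjusted p of 0.05, the 5 coding genes nearest to *MT2A* in pattern and the tested genes next to *MT2A* by fold change. Genes beside *MT1G*, single list members without a call, and *MT2P1* as an addition to *MT2A* were chosen after their values were seen. The members and lists were chosen with earlier results of these data known. Lists have counts and medians only.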

Additional observations from a re-analysis of the deposited data

How the results depend on the processing

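Of the metallothionein results, the calls and directions of *MT2A* and *MT1G* did not change under any alternative that gave a value; *MT1G* was not tested with thinned WC libraries. The number of metallothionein genes that rose, 2, became 5 with no expression filter and 5 with DESeq2, since more genes were tested, and 1 with thinned WC libraries, and the number enriched in EVs did the same. With the replicate block both stayed at 2, and *MT2A* stood at 4.54 and *MT1G* at 5.17. The block ended the calls of *SCO1* and *GLRX* and of no other named gene. Leaving out 1 library at a time moved the log2 ratio to *MT2A*, EV minus WC, between -0.26 and 0.38 for *MT1E*. For *MT1F* it moved between -0.37 and 0.48, so *MT1E* and *MT1F* have no settled direction. The range was 0.20 to 1.09 for *MT1G* and 0.11 to 0.68 for *MT1X*. With 1 library left out the exact permutation p cannot go below 0.2, so it decides nothing here.

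The summed metallothionein level in unscaled CPM, 201 in EVs and 12.5 in WC on average, became 393.0 in EVs and 21.8 in WC with mitochondrial genes and pseudogenes left out of the total, and 215 in EVs and 15.4 in WC with the other metallothionein genes and pseudogenes added. Leaving out 1 library gave 189 to 219 in EVs and 11.3 to 13.6 in WC. Total-count scaling turned 1987 risen and 1864 fallen genes into 1066 and 4494, and enriched genes from 395 to 213. With thinned WC libraries 1206 fell and 227 were enriched. For the 32 other named genes, 377 of 397 gene and alternative pairs kept their call, 20 lost it and 0 changed direction. Pairs where the gene was not tested were not counted. *ATP7B*, *MT1XP1* and *HSPA1B*, for example, had no value with thinned WC libraries or with any WC library left out. The depth of the EV libraries limits *MT1A*, *MT1H* and *MT1M*, where 1 read or none was seen.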
